A study of Mus musculus with 2 samples.

Results

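Batf3, Zbtb46, Id2, Spi1, Nfil3, Tcf4, Cebpa, Cebpb, Bcl6 and Runx3 are transcription factor genes that set dendritic cell and myeloid fates, and their RNA was compared between mouse bone marrow-derived dendritic cells labelled EGR1-deficient and wild-type (WT) cells. They were named as a list and found by the RefSeq accession of each probe, which gave 16 probes for all 10 genes, out of 23786 genes that could be named on the array. EGR1 is a zinc-finger factor of the immediate early class that binds GC-rich DNA. Each genotype was read on 1 single-colour Agilent array, 1 of cells with the genotype label Egr1-deficient and 1 of cells labelled WT. Both came from C57BL/6J mice labelled male, and both were femoral marrow cells grown in 10 ng/ml GM-CSF and collected on day 6. The labels do not say how Egr1 was disrupted or whether marrow of several mice was pooled.

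Dendritic cells descend from marrow progenitors through branch points that these factors control. SPI1 and the C/EBP proteins open the myeloid programme, BATF3, ID2 and NFIL3 are needed in mice for the conventional type 1 dendritic cell, and TCF4, an E protein, drives the plasmacytoid dendritic cell, which ID2 opposes by binding E proteins. ZBTB46 marks the conventional dendritic lineage against monocytes and macrophages. BCL6 and RUNX3 act in lymphocytes as well as in dendritic cell subsets.

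There were no replicate arrays, so each value below is a single reading, no p-value was computed, and the errors given are technical. A level is the processed signal of a probe, in the scanner's intensity units. A difference is log2 of that signal relative to the array's 75th percentile, EGR1-deficient minus WT. Levels and summed signals of lists are not scaled to that percentile, which was 191.6 for EGR1-deficient-labelled cells and 183 for WT cells. Among probes printed many times on the arrays, the median SD of a single-spot difference was 0.07 log2 units, so 2 SD came to 0.14, and across 2 probes of the same gene the median SD was 0.17. By the scanner program's call, a probe is well above background or not, and 59.8% of non-control spots passed for EGR1-deficient-labelled cells and 55.2% for WT cells. Of the 23786 named genes, 1296 passed in EGR1-deficient-labelled cells alone and 385 in WT cells alone. Both arrays were on 1 slide and read in 1 scan.

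The targeted gene went against the label. Egr1 read 1212 in EGR1-deficient-labelled cells and 379.7 in WT cells, a difference of 1.61. It has 1 probe, whose place in the gene the sources used here do not give, and a probe outside the disrupted part would check nothing. Every direction below is drawn from a label that this reading does not bear out. The male labels were also not borne out by most sex-linked genes. Xist, an RNA of the inactive X chromosome, read 4559 in EGR1-deficient-labelled cells and 3425 in WT cells, while no probe of the Y-linked genes Ddx3y, Kdm5d and Uty passed the background call on an array. Of the 2 probes of Eif2s3y, also Y-linked, 1 passed on both, at 27.1 in EGR1-deficient-labelled cells and 25.6 in WT cells.

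General dendritic cell markers were present, with gaps in the subset lists. All 9 general dendritic cell markers, among them the integrin gene Itgax and the MHC class II genes H2-Ab1 and Cd74, were well above background on both arrays. Of 9 conventional type 1 dendritic cell markers, Xcr1, Clec9a, Itgae and Gcsam failed the background call on both arrays, and the other 5 passed on both. Of 8 type 2 markers Esam failed on both, and of 9 plasmacytoid markers Ly6d passed in EGR1-deficient-labelled cells alone. All 10 macrophage markers and all 11 neutrophil and precursor markers were above background on both arrays.

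The 10 lineage factors were close between the 2 arrays. All 10 were well above background on both, and none differed by 1.5-fold or more in either direction, where 7.69% of the 13725 genes above background on both arrays did. At 2-fold the share of all genes was 1.71%, with 0.707% higher and 1.01% lower in EGR1-deficient-labelled cells. Their differences ran from −0.44 for Runx3 to 0.17 for Batf3, with a median of −0.05, and the median over all those genes was also −0.05. In that range lay 69.3% of all genes. Of the 10 factors, 3 were above 0 and 7 below, and 57.4% of all genes were below 0. Against the all-gene median, 5 of the factors were above and 5 below. Of the 7 below 0, Zbtb46, Nfil3 and Cebpb changed sign under some other scalings or background corrections.

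**Figure D1:**
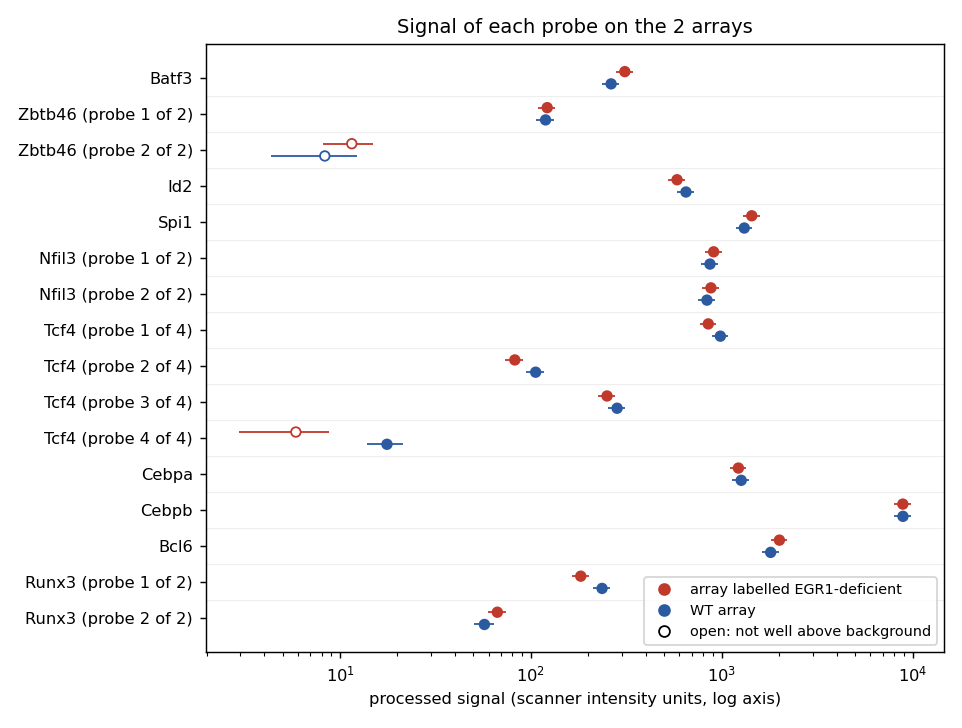
Processed signal of each of the 16 probes (horizontal log axis, scanner intensity units) in EGR1-deficient-labelled cells (red, upper point of each row) and in WT cells (blue, lower point). Bars are the scanner program's own error, and open points were not well above background. The paired points lie close together in every row but those of the dimmest probes of Zbtb46 and Tcf4.

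The conventional dendritic cell factors showed small differences. Batf3, a basic leucine zipper factor that pairs with JUN proteins and joins IRF8 on DNA, read 310.5 in EGR1-deficient-labelled cells and 263.1 in WT cells. This is a difference of 0.17, or 1.13-fold, which is over 2 SD of a repeated spot but under the error of 0.21 that the scanner program's own estimates give for it. Zbtb46, the zinc-finger factor of conventional dendritic cells, read 121.7 in EGR1-deficient-labelled cells and 119.3 in WT cells, a difference of −0.04 that turned to 0.077 with the authors' series table. Another of its probes, at 11.52 in EGR1-deficient-labelled cells and 8.32 in WT cells, did not pass the background call on an array and gives no fold. Zbtb46 therefore rests on 1 probe, and the 2 arrays did not differ in it beyond technical spread.

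Id2 encodes a helix-loop-helix protein without a DNA-binding region of its own. It read 582.9 in EGR1-deficient-labelled cells and 648.9 in WT cells, a difference of −0.22 and 1.17-fold lower in EGR1-deficient-labelled cells. That difference was over 2 SD of a repeated spot and close to the scanner's error of 0.20. Of all genes, 55.5% had a smaller absolute difference than Id2.

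Nfil3, a basic leucine zipper repressor also required by innate lymphoid cells, was the most alike of the 10 between the arrays in the signals scaled to the 75th percentile. Its first probe read 906.3 in EGR1-deficient-labelled cells and 867 in WT cells, a difference of −0.0026. Its other probe read 876.9 in EGR1-deficient-labelled cells and 836.1 in WT cells, a difference of 0.0024. The raw signals were slightly higher in EGR1-deficient-labelled cells, as was the 75th percentile that they are set against, 191.6 for EGR1-deficient-labelled cells and 183 for WT cells. Of all genes, 0.685% had a smaller absolute difference than its first probe. Another factor lay nearer 0 in 5 of 9 alternatives, Cebpa after quantile normalization, after loess and with the series table, Spi1 after normexp, and Cebpb with the series table set on its 75th percentile.

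Tcf4, the E protein of plasmacytoid dendritic cells, was lower in EGR1-deficient-labelled cells in each of its probes. Probe 1 read 849.4 in EGR1-deficient-labelled cells and 982.6 in WT cells, a difference of −0.28. Probe 2 read 82.3 in EGR1-deficient-labelled cells and 105.9 in WT cells, a difference of −0.43. Probe 3 read 250.5 in EGR1-deficient-labelled cells and 282.8 in WT cells, a difference of −0.24. These 3 probes, all well above background on both arrays, had a mean difference of −0.32 with an SD between probes of 0.10, and each was past 2 SD of a repeated spot. Over 6 other scalings and background corrections probe 1 ran from −0.30 to −0.16, probe 2 from −0.46 to −0.23 and probe 3 from −0.24 to −0.13, of which −0.13 alone, with the authors' series table, fell within 2 SD. Probe 4 read 5.87 in EGR1-deficient-labelled cells, not well above background, and 17.6 in WT cells, just above its lowest such signal of 16.3, and was at least 1.39-fold lower in EGR1-deficient-labelled cells. By the scanner program's own estimates the errors of these differences were 0.20, 0.22 and 0.21 for probes 1, 2 and 3. None of the 3 was past 2 times its error. Of the 10 factors, Tcf4, Nfil3 and Runx3 alone had several probes above background on both arrays. Among these, Tcf4 alone had several past 2 SD on the same side, yet 19.9% of all genes had a lower difference than its probe 1. Probes of 1 gene share the RNA sample, so their agreement limits probe error and not the spread between cultures.

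**Figure D2:**
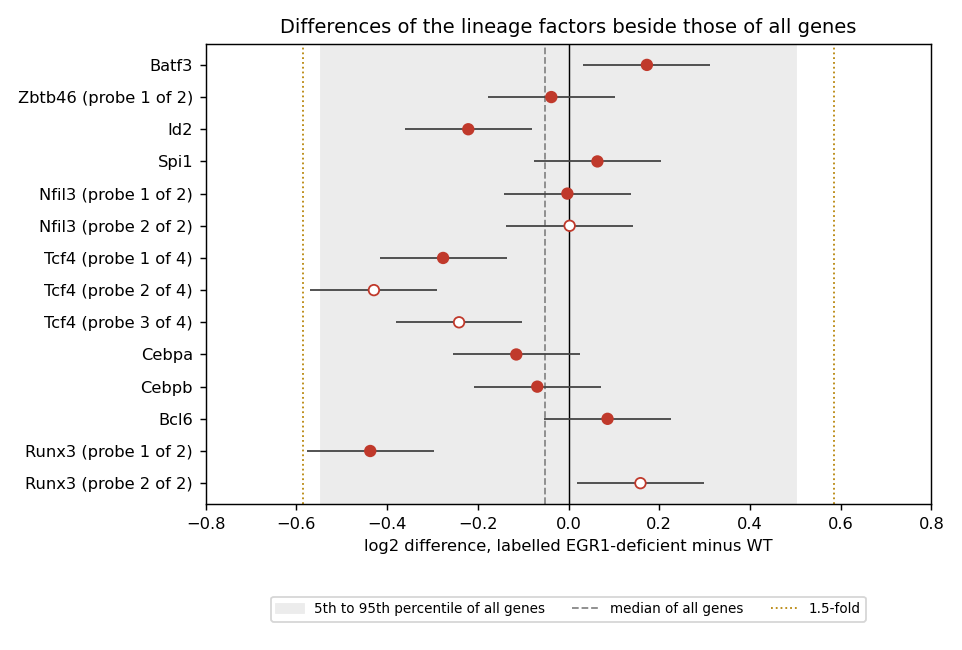
Log2 difference, EGR1-deficient minus WT, of the 14 probes above background on both arrays, with bars of 2 SD of a repeated spot. Filled points are the probe that represents a gene and open points its other probes, the grey band spans the 5th to 95th percentile of all genes (−0.54 to 0.50), and dotted lines mark 1.5-fold. All 14 points lie inside the band.

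The myeloid factors shared by macrophages, granulocytes and dendritic cells were close as well. Spi1 encodes PU.1, an ETS factor that dendritic cells and macrophages need. It read 1435 in EGR1-deficient-labelled cells and 1311 in WT cells, a difference of 0.06. Cebpa, the C/EBP factor of granulocyte and monocyte progenitors, read 1222 in EGR1-deficient-labelled cells and 1264 in WT cells, a difference of −0.12. Cebpb, the C/EBP factor of stress-induced granulocyte output and of activated macrophages, read 8876 in EGR1-deficient-labelled cells and 8892 in WT cells, a difference of −0.07 whose sign turned under quantile normalization, loess and the authors' series table. None of these 3 exceeded 2 SD of a repeated spot, although Spi1 did at 0.16 after loess and 0.18 after quantile normalization and with the series table, and Cebpa did at −0.16 after normexp. Each rests on 1 probe. With 1 array per genotype, fewer cells of a type and less RNA per cell cannot be told apart in any of these values.

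Bcl6, a zinc-finger repressor of germinal centre B cells and follicular helper T cells, read 2003 in EGR1-deficient-labelled cells and 1802 in WT cells, a difference of 0.09, within 2 SD of a repeated spot, which was past 2 SD in 4 of 6 alternatives, at 0.20 after loess, 0.21 after quantile normalization, 0.20 with the series table and 0.15 with that table set on its 75th percentile. Runx3, a RUNX factor of cytotoxic T cells, natural killer cells and Langerhans cells, gave opposite readings in its 2 probes. Probe 1 read 182.4 in EGR1-deficient-labelled cells and 235.9 in WT cells, a difference of −0.44, which was the lowest of the 10 factors. Probe 2 read 66.7 in EGR1-deficient-labelled cells and 57.1 in WT cells, a difference of 0.16. Both were well above background on both arrays and both passed 2 SD of a repeated spot, on opposite sides of 0. Over the same 6 alternatives probe 1 stayed past 2 SD, while probe 2 ran from 0.10 to 0.27 and was past it in 4. The probes lay 0.60 log2 units apart, with an SD between them of 0.42 against the median of 0.17 for genes with 2 probes, and their mean was −0.14. No direction can be given for Runx3.

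Ordered by difference, the factors ran Batf3, Bcl6, Spi1, Nfil3, Zbtb46, Cebpb, Cebpa, Id2, Tcf4 and Runx3. None of the 9 gaps between neighbours reached 2 SD of such a gap, 0.20, and the widest was 0.16 between Tcf4 and Runx3. Against 2 SD of a repeated spot, 4 of the 10 lay further from 0, namely Batf3, Id2, Tcf4 and Runx3. Batf3 was the nearest to 0 of these, and 45.1% of all genes had a smaller absolute difference than it. Most genes thus also lay past 2 SD. That SD is a median over probes, and its 90th percentile was 0.11. With the authors' series table Id2, at −0.11, lay within 2 SD. The scanner program's own error was 10.0% to 11.9% of the signal for the probes above background on both arrays. Against 2 times that error, 1 of the 10 lay further from 0, the Runx3 probe that its other probe contradicts. Of all genes, 85.1% had a smaller absolute difference than that probe, so many other genes lay as far from 0.

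**Figure D3:**
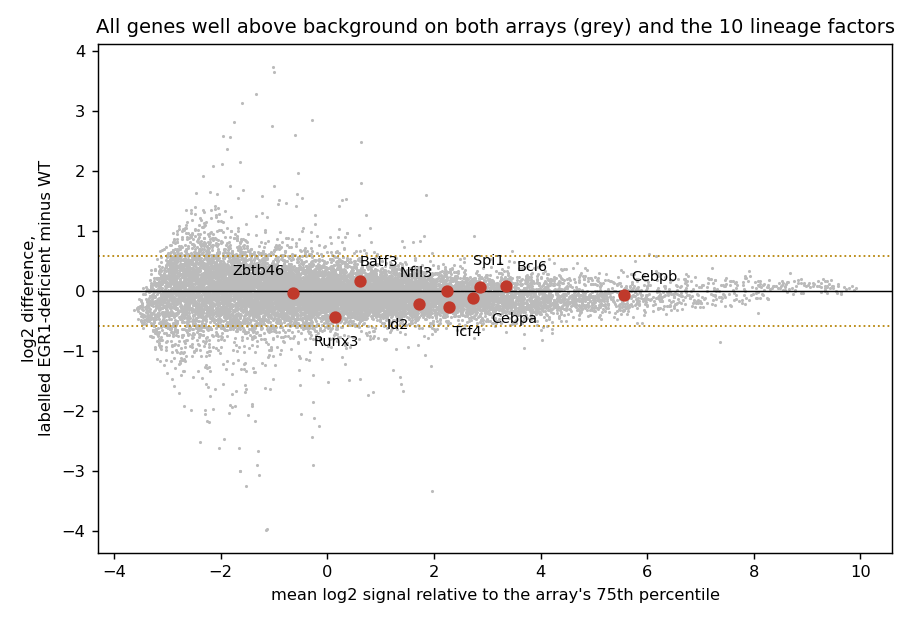
Log2 difference, EGR1-deficient minus WT (vertical axis), against mean log2 signal relative to the array's 75th percentile (horizontal axis) for 13725 genes above background on both arrays, in grey, with the 10 lineage factors in red. Dotted lines mark 1.5-fold. All 10 red points lie between those lines, and the grey spread is widest among dim genes.

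Upstream sequence was examined for letters that these factors and EGR1 are known to bind. RefSeq promoter windows (build GRCm38.p6, 250 bases before an annotated start) were found for 8 of the 10 genes, 10 windows in all, with 2 each for Bcl6 and Runx3. Spi1 and Tcf4 had no window, so no motif was looked for in these genes. The EGR1 motif GCGNGGGCG, searched on both strands, was present in 4.70% of 32851 windows and in 2 of these 10, those of Nfil3 and of the downstream Runx3 start. The member windows had a median GC content of 65.8% against 52.4% over all windows. Both windows with the motif are shown because they set the motif of the disrupted factor beside genes with its readings, and the upstream Runx3 window because it holds RUNX letters. Capitals mark GCGNGGGCG in the Nfil3 and downstream Runx3 windows, and the RUNX motif TGTGGT, read on the other strand as ACCACA, in the upstream Runx3 window.
Nfil3, chr13:52981040-52981289, minus strand: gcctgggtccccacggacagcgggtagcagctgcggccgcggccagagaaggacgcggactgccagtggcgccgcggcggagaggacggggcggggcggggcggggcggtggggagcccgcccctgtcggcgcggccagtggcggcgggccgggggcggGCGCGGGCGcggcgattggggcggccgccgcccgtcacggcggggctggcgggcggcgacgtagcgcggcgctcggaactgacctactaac
Runx3 downstream start, chr4:135152295-135152544, plus strand: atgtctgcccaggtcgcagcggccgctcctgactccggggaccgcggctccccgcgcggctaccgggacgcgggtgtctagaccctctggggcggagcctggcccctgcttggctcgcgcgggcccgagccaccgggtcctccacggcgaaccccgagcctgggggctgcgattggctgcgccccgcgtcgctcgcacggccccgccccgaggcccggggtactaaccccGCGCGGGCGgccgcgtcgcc
Runx3 upstream start, chr4:135120395-135120644, plus strand: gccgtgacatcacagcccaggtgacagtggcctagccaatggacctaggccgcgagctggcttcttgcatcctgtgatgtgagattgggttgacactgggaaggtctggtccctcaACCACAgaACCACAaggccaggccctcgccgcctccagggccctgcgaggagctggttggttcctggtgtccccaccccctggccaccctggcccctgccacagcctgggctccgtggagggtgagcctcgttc

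Counted from the annotated start, the Nfil3 match lies at −91 to −83, in a gene whose 2 probes both differed by under 2 SD of a repeated spot. The downstream Runx3 match lies at −20 to −12 from its own start, in the gene whose 2 probes disagree. The sources used here do not give which start each Runx3 probe reports. The upstream Runx3 window held 2 copies of the RUNX motif, which 14.0% of all windows hold at least once. The AP-1 motif TGANTCA, found in 6.75% of windows, was present in that of Zbtb46. The SPI1 motif GAGGAAGT, the C/EBP motifs TTGCGCAA and TTGCGNAA (the first is a case of the second) and the NFIL3 motif TTANNTAA were in none of the 10 windows, against 2.44%, 0.164%, 0.670% and 5.43% of all windows. A match describes letters in a window and says nothing about binding.

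Partners and relatives of the 10 factors were read from 8 lists of 66 genes, all of which had a probe. Of these, 58 were above background on both arrays, with 27 above 0, 31 below and a median difference of −0.01. At 1.5-fold or more, 1 was higher in EGR1-deficient-labelled cells, where 3.51% of all genes were, and 4 were lower, where 4.17% of all genes were. Of all genes past 1.5-fold, 45.7% were higher in EGR1-deficient-labelled cells, against 34.3% after normexp, 34.7% after loess, 73.1% with the series table and 62.3% with that table set on its 75th percentile.

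Among the partners of BATF3 the spread was wide. Batf2, a BATF paralogue induced by interferon, read 97.8 in EGR1-deficient-labelled cells and 206.3 in WT cells, a difference of −1.14 from its single probe. After normexp no gene of this list, Batf2 included, was 1.5-fold or more lower. Batf, another paralogue, read 91.8 in EGR1-deficient-labelled cells and 125.3 in WT cells, a difference of −0.52. Irf8, the factor that BATF3 maintains in type 1 dendritic cells, read 929 in EGR1-deficient-labelled cells and 872.9 in WT cells, a difference of 0.02. Irf4, its relative in type 2 dendritic cells, had probes at −0.26 and 0.44. Junb, a JUN partner, differed by 0.09, with another probe at 0.46, and Jund by −0.26, with another probe at 0.05. Both BATF paralogues read lower in EGR1-deficient-labelled cells while Batf3 was not, and the list's median of −0.26 turned to 0.02 when all probes of a gene were averaged.

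The E and ID proteins around TCF4 and ID2 went both ways. Id1, an ID protein like ID2, read 102.7 in EGR1-deficient-labelled cells and 77.1 in WT cells, a difference of 0.35, and Id3, another, read 96.5 in EGR1-deficient-labelled cells and 115.1 in WT cells, a difference of −0.32. Tcf12, an E protein, differed by −0.34 with another probe at −0.32. Tcf3, the E protein E2A, differed by 0.22 with another probe at −0.01. Id4 failed the background call on both arrays.

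Relatives of SPI1, the ETS factors, had 8 of 9 members above background on both arrays and a median of −0.04. Elf1 differed by −0.58, Ets2 by −0.51 and Fli1 by −0.44, each from 1 probe, and all 3 lay within 1.5-fold. Spib, the ETS factor of plasmacytoid dendritic cells and B cells, read 211.1 in EGR1-deficient-labelled cells and 182.5 in WT cells, a difference of 0.14. Erg, a stem cell and endothelial factor, was above background in EGR1-deficient-labelled cells alone, at 37.5 in EGR1-deficient-labelled cells and 14.4 in WT cells, and at least 2.20-fold higher there. It was the one ETS gene of the list past 1.5-fold, and rests on 1 probe.

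The list named for the C/EBP family, grouped by gene name and leaving out Cebpa and Cebpb, had 4 of 5 genes above 0. The other, Cebpz, was at −0.0075, where 57.4% of all genes were below 0. The median of the list, 0.16, ran from 0.053, as the mean of the probes of a gene, to 0.30 over the alternatives. Ddit3, the stress-induced member CHOP, read 135.8 in EGR1-deficient-labelled cells and 97.8 in WT cells, a difference of 0.41. Cebpe, the factor of late granulocyte maturation, read 654.1 in EGR1-deficient-labelled cells and 527.1 in WT cells, a difference of 0.25. Cebpg differed by 0.16 with another probe at −0.05, and Cebpd by 0.046. All 5 lay within 1.5-fold, as Cebpa and Cebpb did.

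Counterparts of NFIL3, RUNX3 and BCL6 that were above background on both arrays lay within 1.5-fold by the probe of highest signal, though another probe of Tef did not. Dbp, a PAR-bZIP activator that competes with NFIL3 for sites, differed by 0.12, Tef by 0.14 with another probe at −0.85, and Hlf was above background in WT cells alone, at least 1.32-fold lower in EGR1-deficient-labelled cells. Cbfb, the shared partner of RUNX proteins, read 889 in EGR1-deficient-labelled cells and 977.6 in WT cells, a difference of −0.20, and Runx1 differed by 0.04 with another probe at −0.42. Bcor, a BCL6 co-repressor, differed by 0.50 with another probe at −0.47, so its probes disagree as those of Runx3 do. Prdm1, which BCL6 represses in B cells, differed by −0.12.

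Of 27 other haematopoietic lineage factors, 24 were above background on both arrays, with a median of −0.03. Bcl11a, a factor of lymphoid and plasmacytoid cells, read 78.7 in EGR1-deficient-labelled cells and 46.3 in WT cells, a difference of 0.70. It was the only gene of these past 1.5-fold on that side. After normexp Bcl11a differed by 0.47, and no gene of this list was 1.5-fold or more apart either way. With the authors' series table, whether or not set on its 75th percentile, 2 genes were 1.5-fold or more higher. Neither of the 2 other Bcl11a probes was above background on both arrays. Ebf1, a B lineage factor, read 15.7 in EGR1-deficient-labelled cells and 33.3 in WT cells, a difference of −1.15. Gata3, a T lineage factor, read 16.8 in EGR1-deficient-labelled cells and 28.3 in WT cells, a difference of −0.82. Both are dim, near the lowest signals called above background, 13.3 in EGR1-deficient-labelled cells and 16.3 in WT cells. Mycl, a factor of dendritic cells, was above background in WT cells alone and at least 1.65-fold lower in EGR1-deficient-labelled cells. Its other probe was not above background on both arrays. Zeb2, which dendritic and monocytic cells use, read 1983 in EGR1-deficient-labelled cells and 2463 in WT cells, a difference of −0.38 with another probe at 0.26, and Rbpj, the Notch effector, read 2457 in EGR1-deficient-labelled cells and 1993 in WT cells, a difference of 0.24 with another probe at −0.02.

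Markers of the cells these factors serve were set beside them. The general dendritic cell list had a median of −0.03, the type 1 list −0.04 over its 5 measured genes and the type 2 list 0.08. The plasmacytoid list, the cells of Tcf4, had a median of −0.04 over 8 genes, 2 above 0 and 6 below. The unscaled summed signal of the list was 9911 in EGR1-deficient-labelled cells and 8991 in WT cells. In the list Siglech, the defining receptor, read 4748 in EGR1-deficient-labelled cells and 3516 in WT cells, a difference of 0.37. Lag3 read 53.3 in EGR1-deficient-labelled cells and 20.8 in WT cells, a difference of 1.29. Its WT signal is near the lowest called above background there, 16.3. Lag3 differed by 0.43 after normexp and did not pass a stricter filter on dim probes. Klk1 read 941.4 in EGR1-deficient-labelled cells and 1330 in WT cells, a difference of −0.56. Siglech and Lag3 were the 2 above 0. Besides Klk1, those below 0 were Ccr9 (−0.23), Runx2 (−0.10), Bst2 (−0.05), Pacsin1 (−0.04) and Cox6a2 (−0.03). The part of plasmacytoid cells in the Tcf4 reading was not tested.

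Macrophage markers lay lower in EGR1-deficient-labelled cells in 10 of 10 genes, where 57.4% of all genes did, and in 9 of 10 with the series table, where Mrc1 turned to 0.058 (0.0063 with that table set on its 75th percentile). Of the 10 genes 1 reached 1.5-fold, C1qc, where 4.17% of all genes were lower by as much. None did after quantile normalization, after loess or with the series table, whether or not set on its 75th percentile. The list had a median of −0.38 and an unscaled summed signal of 28926 in EGR1-deficient-labelled cells and 36456 in WT cells. C1qc read 2838 in EGR1-deficient-labelled cells and 4222 in WT cells (−0.64), and the receptor gene Csf1r read 8289 in EGR1-deficient-labelled cells and 10347 in WT cells (−0.39, another probe −0.05). Beside this, Spi1 differed by 0.06 and Cebpb by −0.07. The neutrophil and precursor list had 5 of 11 genes above 0 and 6 below, none of them 1.5-fold apart, and a median of −0.10. Its unscaled summed signal was 119040 in EGR1-deficient-labelled cells and 106296 in WT cells. In that list the antimicrobial peptide gene Camp read 3692 in EGR1-deficient-labelled cells and 2575 in WT cells, a difference of 0.45, and the receptor gene Csf3r read 55219 in EGR1-deficient-labelled cells and 48947 in WT cells, a difference of 0.11. On the other side of 0, Ly6g, a neutrophil surface marker, differed by −0.30, and Ctsg, a granule protease, by −0.27. The part of the macrophage shift in the factors' readings was not tested.

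**Figure D4:**
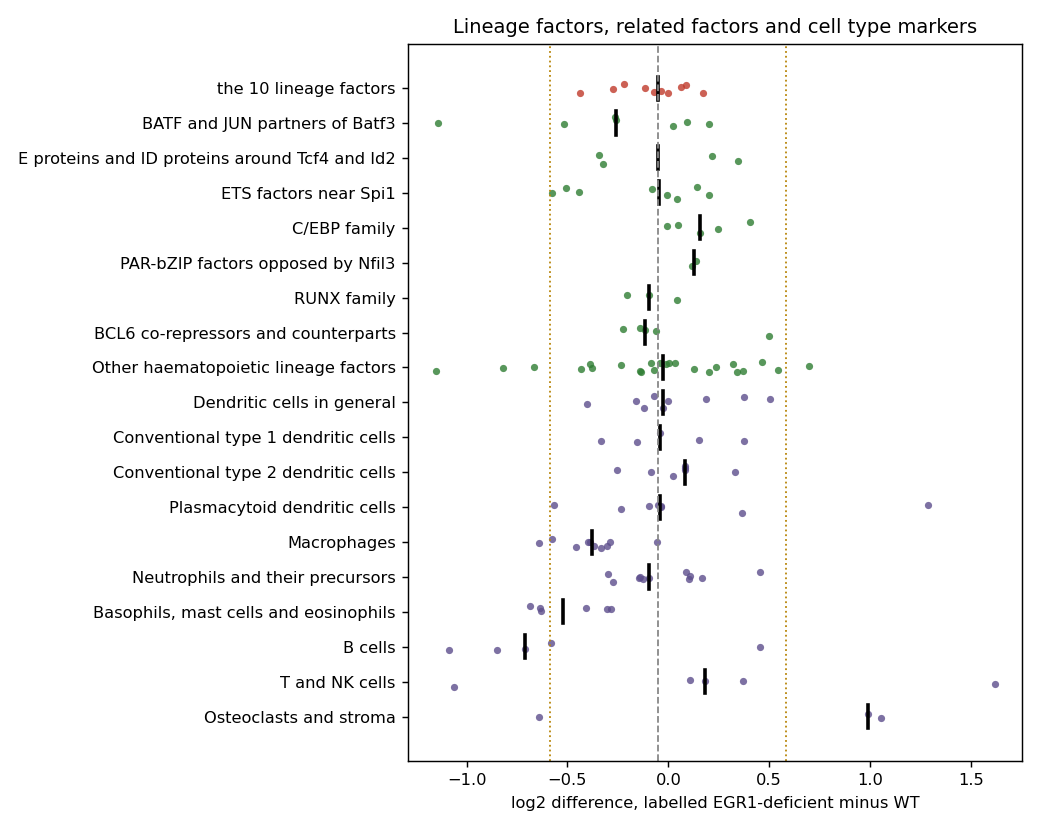
Log2 difference, EGR1-deficient minus WT (horizontal axis), of genes above background on both arrays in the 10 lineage factors (red), lists of related factors (green) and cell type markers (purple). Black ticks are medians, the dashed line is the median of all genes (−0.05) and dotted lines mark 1.5-fold. The red points stay within 1.5-fold, and the macrophage points all lie below 0, though Mrc1 does not with the authors' series table.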

How the data were processed

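Per the file headers, the intensities deposited by the authors came from Agilent Feature Extraction 12.1.0.3. The version in the submitters' processing notes is 11.5.1.1. The processed signal had been background-subtracted and detrended, per the file headers. The deposited series table equals that intensity times 6.18 (EGR1-deficient label) and 5.97 (WT), without centring. The sources used here do not explain these constants. That table has column medians of 1205 (EGR1-deficient label) and 1114 (WT) and served as an alternative. Control spots and 144 outlier spots were left out, no spot was saturated, and repeat spots were averaged as log2 values. Probes were named by accession through a RefSeq table (assembly GRCm38.p6, names only, since the files name mm9), which named 34565 of 56605 probes. The probe of highest mean signal represented a gene.

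At-least folds were taken against the higher of the dim array's lowest well-above-background signal and the probe's own. With 1 array per group nothing was tested, and array number limits the precision. Normexp (offset 50), quantile and loess used limma 3.58.1. The scanner files hold no mean signal, so normexp was run on the median signal. The counting step was tested on simulated data. The 10 factors and the lists were chosen with earlier results of these data known. Named genes were the 10 factors, Egr1 and, per list, those with the largest differences or at-least folds or the highest signal. Other genes named were chosen after their values were seen.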

Additional observations from a re-analysis of the deposited data

How the results depend on the processing

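No paired analysis was possible because each genotype has 1 array and no test was run. None of the 10 factors reached 1.5-fold under any of 9 alternatives, all but 1 of them planned. The added one set the authors' series table on its 75th percentile and was chosen after seeing the data. Dropping the filter on dim probes, or making it stricter, could not move a member value, since each representing probe passed. The mean of probes could move Nfil3, Tcf4 and Runx3 alone. Scaling to the median of spots above background shifted every difference by the same small amount. The largest difference under any setting stayed at −0.44, for Runx3. Batf3, Id2, Spi1, Tcf4, Cebpa, Bcl6 and Runx3 kept their sign throughout, and Zbtb46, Nfil3 and Cebpb did not. With the authors' series table, whose constants shift every difference by 0.12, values were 0.29 (Batf3), 0.077 (Zbtb46), −0.11 (Id2), 0.18 (Spi1), 0.11 (Nfil3), −0.16 (Tcf4), −0.00022 (Cebpa), 0.046 (Cebpb), 0.20 (Bcl6) and −0.32 (Runx3), with a median of 0.062. After quantile normalization Spi1 was 0.18, Cebpa −0.013, Cebpb 0.10 and Bcl6 0.21, with a median of 0.025. After loess Spi1 was 0.16, Nfil3 0.076, Tcf4 −0.20, Cebpa −0.021, Cebpb 0.061 and Bcl6 0.20, with a median of 0.020. Runx3 was −0.34 after normexp and −0.14 as the mean of its probes. The remaining 68 of 90 member values moved by at most the SD of a repeated spot, a count that includes those that could not move. The cause of these shifts was otherwise not tested.

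Counts over all genes depended more on the setting. At 1.5-fold 482 genes were higher and 573 lower. These were 68 and 130 after normexp, 370 and 696 after loess, 2527 and 1932 without a filter on dim probes, and 200 (higher) and 293 (lower) with the stricter filter. With the series table, which lists 29296 spots and 12772 such genes against 13725, 649 were higher and 239 lower, and 511 and 309 on its 75th percentile, so that the higher calls outnumber the lower. At 2-fold 97 were higher and 138 lower, and these were 18 and 32 after normexp, 1280 and 971 without the filter, and 37 and 65 with the stricter one. They were 103 and 68 with the series table and 85 and 77 on its 75th percentile. Medians of 13 of the 18 lists of related factors and markers took both signs across the settings. Those of the C/EBP family, macrophages, basophils with mast cells and eosinophils, B cells, and T and NK cells kept 1 sign. Signal over background limits the Zbtb46 and Tcf4 probes that were not measured on both arrays.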

Other observations

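Marker lists of cells in which some of the 10 factors are better known, and which the report leaves out, are given here as values. Of the basophil, mast cell and eosinophil markers, 6 of 7 were above background on both arrays and all 6 were below 0, where 57.4% of all genes were, with a median of −0.52. Prg2, an eosinophil granule protein gene, read 1542 in EGR1-deficient-labelled cells and 2371 in WT cells (−0.69). Epx, for eosinophil peroxidase, differed by −0.64, and Mcpt8, for a basophil protease, by −0.63. Beside them Gata2, a factor of that lineage, read 1077 in EGR1-deficient-labelled cells and 1389 in WT cells (−0.43), and Cebpa differed by −0.12.

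B cell markers had a median of −0.71 over 5 genes, 1 above 0 and 4 below. The summed signal of all 6 listed genes was 469.9 in EGR1-deficient-labelled cells and 455.4 in WT cells. These sums are not scaled to the 75th percentile, which was 191.6 for EGR1-deficient-labelled cells and 183 for WT cells. Of the 5, 3 were 1.5-fold or more lower in EGR1-deficient-labelled cells, where 4.17% of all genes were, and 0 after normexp. Cd79b, a subunit of the B cell receptor, read 20.9 in EGR1-deficient-labelled cells and 42.4 in WT cells (−1.09), near the lowest signals above background. Blnk read 64.3 in EGR1-deficient-labelled cells and 110.7 in WT cells (−0.85). The gene above 0 was Ms4a1, which encodes CD20, at 321.1 in EGR1-deficient-labelled cells and 224.1 in WT cells (0.45). Pax5, a B lineage factor, differed by 0.47, with another probe at 0.28, the dim Ebf1, another such factor, by −1.15, and Bcl6 by 0.09.

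T and NK cell markers, the cells of Runx3, had a median of 0.18 over 5 of 10 genes above background on both arrays. Klrd1, a receptor gene of natural killer cells, read 225.8 in EGR1-deficient-labelled cells and 70.3 in WT cells (1.62), while Il2rb, which encodes a receptor chain for IL-15, read 28.3 in EGR1-deficient-labelled cells and 56.5 in WT cells (−1.06). Ncr1, Gzmb and Eomes did not pass the background call on an array. Of osteoclast and stromal markers 3 of 7 were above background on both arrays, Col1a2 (1.05), Pdgfrb (0.99) and Acp5 (−0.64). None of these 3 reached 1.5-fold after normexp, and Acp5 alone passed the stricter filter. The other 4 passed in EGR1-deficient-labelled cells alone, as 1296 of 23786 named genes did, against 385 in WT cells alone. Calcr was at least 12.8-fold higher there, Dcn 1.83-fold and Col1a1 1.31-fold, while the at-least fold of Ctsk, 0.93, gives no direction. These folds come from the brightest probe of each gene. Calcr has 1 other probe and Col1a1 has 2 others, none of them above background on both arrays.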
